A study of Homo sapiens with 40 samples.

Results

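The mRNA decay machinery was described here through 45 genes, listed by symbol. They were 8 factors of nonsense-mediated decay (NMD), 11 subunits of the CCR4-NOT deadenylase and 3 genes of the PAN2-PAN3 and PARN deadenylases. Further members were 8 decapping factors and the 2 XRN exonucleases. The other 13 formed the RNA exosome list, with its catalytic subunits and also DIS3L2, a nuclease that acts without the exosome. All 45 were found by symbol and Ensembl identifier among the 19962 genes of the count table, and all 45 passed the filter on low counts, which left 11428 genes. Poly(A) RNA was sequenced from RKO, an established cell line from a human colorectal carcinoma. In the study, IGF2BP2 or IGF2BP3, RNA-binding proteins known for binding and stabilising target mRNAs, were removed by an inducible knockout or lowered by small interfering RNA (siRNA).

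Every line carried Cas9 under doxycycline control with GFP, and a lentiviral pair of guide RNAs with a blue fluorescent marker, for which the cells were sorted. The guides were directed at the non-coding locus AAVS1 (sgAAVS1), at IGF2BP2 (sgIGF2BP2) or at IGF2BP3 (sgIGF2BP3), and nothing in the labels says that a line was a single clone, so an induced group may mix edited and unedited cells. All 3 lines had a DMSO group, in which Cas9 was not induced, and a Dox group given doxycycline at 250 ng/mL for 72 hours. The sgIGF2BP2 line also had a group with a non-targeting siRNA (siControl) and one with an siRNA pool against IGF2BP2 (siIGF2BP2), and the sgIGF2BP3 line had siControl and an siRNA pool against IGF2BP3 (siIGF2BP3), each at 75 nM for 48 hours. The nucleoside s4U (250 µM, 2 hours) was added to all cells, controls included, and the counts analysed here do not separate labelled from unlabelled RNA. Each of the 10 groups had 4 libraries. The labels give 1 well of a plate per condition in quadruplicate and no more about where replicates came from, so p-values measure the spread between these libraries, which may be technical in part. In bulk RNA, fewer cells that express a gene and less of its RNA per cell cannot be told apart.

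Cytoplasmic mRNA decay usually starts with shortening of the poly(A) tail, first by PAN2-PAN3 and then by CCR4-NOT. The cap is then removed by DCP2 with its activators and the body is degraded from the 5′ end by XRN1, or the RNA is degraded from the 3′ end by the exosome. NMD, led by the helicase UPF1, feeds transcripts with early stop codons into the same enzymes.

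Library totals lay between 10018181 and 24822807 counts with a median of 13468792, and the common biological coefficient of variation was 3.79%. Levels are given as CPM, the read count divided by the library size after TMM scaling and multiplied by a constant that is the same for all libraries. IGF2BP2 fell by 1.34 on the log2 scale after Dox in sgIGF2BP2 cells and by 1.84 after siIGF2BP2, and IGF2BP3 fell by 1.68 after Dox in sgIGF2BP3 cells and by 2.78 after siIGF2BP3. IGF2BP2 itself was higher with siControl than with DMSO, by 0.34 in sgIGF2BP2 cells and 0.28 in sgIGF2BP3 cells, and IGF2BP3 fell by 0.25 after Dox in sgIGF2BP2 cells. The library sgIGF2BP2 Dox replicate 2 stood apart from its group: its pairs gave a chi-square of at least 11.8 per gene, and all other replicate pairs gave at most 6.42. In the siIGF2BP2 group, replicate 3 also stood apart, at 5.64 to 6.42 with the other replicates, which gave 1.49 to 1.83 among themselves. Of the 8 epithelial and colorectal markers, 4 passed the count filter (KRT8, KRT18, EPCAM and CDX2), KRT19, CDH1 and VIL1 were at 0 to 4 counts in any library and KRT20 was at 0. Of 10 markers of fibroblasts, leukocytes and endothelium, 1 passed (CD68), and their summed level was 1.76 to 4.21 CPM in every library.

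The promoters of the 4 members on which the results below turn most are printed here: EXOSC8, which fell after Dox in all 3 lines, EXOSC9, which fell after Dox in 2 of them, and DCP2 and PAN2, which moved in opposite directions after siIGF2BP2. Each is the 250 bases before the transcription start in RefSeq (GRCh38.p14), read 5′ to 3′ on the gene's strand, for PAN2 at 1 of 2 listed starts, and capitals mark matches, on either strand, to the CCAAT box (CCAAT) or to an E2F-type motif (TTCCCGC).
EXOSC8 (chr13:37000536-37000785, forward strand): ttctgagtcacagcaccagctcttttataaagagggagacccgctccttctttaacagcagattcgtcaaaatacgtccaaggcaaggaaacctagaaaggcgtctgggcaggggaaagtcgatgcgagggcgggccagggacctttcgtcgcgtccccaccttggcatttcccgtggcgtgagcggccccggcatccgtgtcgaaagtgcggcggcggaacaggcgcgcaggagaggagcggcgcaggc
EXOSC9 (chr4:121801073-121801322, forward strand): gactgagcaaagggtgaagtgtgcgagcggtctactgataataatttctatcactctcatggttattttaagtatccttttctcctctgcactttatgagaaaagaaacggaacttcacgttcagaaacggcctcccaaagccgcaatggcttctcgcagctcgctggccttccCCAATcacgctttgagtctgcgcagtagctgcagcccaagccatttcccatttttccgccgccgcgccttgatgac
DCP2 (chr5:112976548-112976797, forward strand): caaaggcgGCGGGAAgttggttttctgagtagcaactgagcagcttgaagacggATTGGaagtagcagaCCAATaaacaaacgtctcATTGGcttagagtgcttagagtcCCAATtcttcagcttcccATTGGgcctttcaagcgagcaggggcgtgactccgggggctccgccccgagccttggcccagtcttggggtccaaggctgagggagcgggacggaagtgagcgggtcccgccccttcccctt
PAN2 (chr12:56334001-56334250, reverse strand): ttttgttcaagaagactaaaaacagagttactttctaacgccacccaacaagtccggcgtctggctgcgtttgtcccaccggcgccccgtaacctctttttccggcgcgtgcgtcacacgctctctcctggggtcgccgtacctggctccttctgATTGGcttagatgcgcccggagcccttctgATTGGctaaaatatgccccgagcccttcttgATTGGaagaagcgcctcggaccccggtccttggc
The EXOSC8 window held no match to the 5 motifs searched, the EXOSC9 window held 1 CCAAT, the DCP2 window held 5 CCAAT and 1 E2F-type match, and the PAN2 window held 3 CCAAT. Over the 59 windows found for 40 of the members, CCAAT was present in 28.8%, against 32.0% of all 35116 windows of the same length. The other motifs, also searched on both strands, were TTCCCGC (15.3% of member windows and 5.52% of all), the cell cycle element TTTGAA (6.78% and 13.3%), the ETS-type CCGGAAG (10.2% and 8.52%) and the NRF1 motif (15.3% and 5.07%); no motif is contained in another. CNOT1, CNOT7, EXOSC1, LSM1 and EXOSC4 had no entry.

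Levels between genes are compared per kilobase of mRNA, from the longest principal transcript in GENCODE 29, which may differ from what the authors counted. The members' mean CPM had a median of 55.0, against 32.0 over all genes tested. Among NMD factors, UPF1 was highest at 45.3 CPM per kb and SMG1, the kinase that phosphorylates UPF1, lowest at 6.6, a value that is uncertain because SMG1 has near-identical pseudogene copies. In CCR4-NOT, the level ran from 30.3 CPM per kb for CNOT9 to 3.37 for CNOT6L, one of the catalytic subunits. In the deadenylases outside CCR4-NOT, PAN3, the adaptor, was at 10.6 and PAN2, the catalytic subunit, at 2.98 CPM per kb. Of the decapping factors, LSM1 (47.0 CPM per kb) was highest, and the decapping enzyme DCP2 (3.84) and the DCP1B paralog (1.22) were lowest. The nuclear 5′ exonuclease XRN2 was at 60.3 CPM per kb and the cytoplasmic XRN1 at 2.37. Exosome ring and cap subunits ran from 17.5 (EXOSC6) to 110 CPM per kb (EXOSC4), and DIS3 (8.32), DIS3L (4.01) and DIS3L2 (10.2) lay below all of them, while EXOSC10, also a 3′ exonuclease, lay within their range at 37.9. In GENCODE 29, 13 members shared exon bases with a gene on the opposite strand (SMG6, CNOT1, CNOT3, CNOT7, CNOT8, CNOT11, EDC3, LSM1, EXOSC3, EXOSC5, EXOSC8, EXOSC9 and DIS3) and 3 with a gene on the same strand (PAN2, EXOSC3 and EXOSC7), so their counts are less certain.

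**Figure D1:**
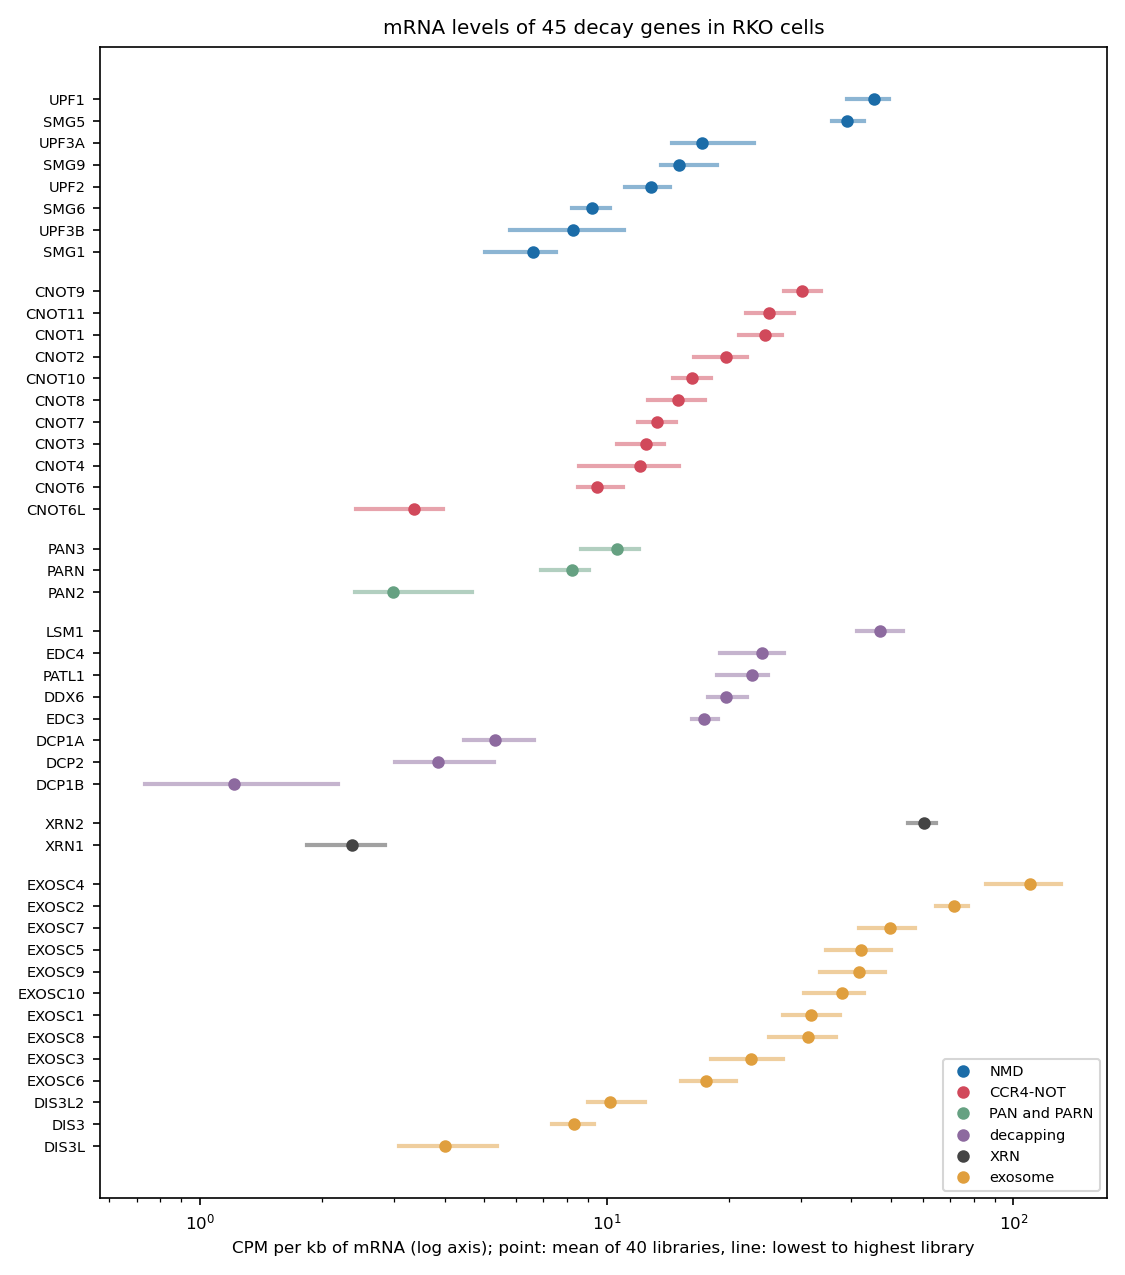
CPM per kb of mRNA (log axis) of the 45 genes, grouped by role; points are means of 40 libraries and lines run from the lowest to the highest library. EXOSC4 is the highest at 110 and DCP1B the lowest at 1.22 CPM per kb.

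The levels varied little between groups. The ratio of the highest to the lowest group mean had a median of 1.19 over the members and 1.24 over all genes tested and ran, over the members, from 1.04 (EDC3) to 1.52 (DCP1B). A gene was called when its Benjamini-Hochberg adjusted p from edgeR's quasi-likelihood test, over all genes tested, was under 0.05. In at least 1 of the 7 comparisons of 2 groups, 34 of the 45 members (75.6%) were called, against 63.4% of all genes tested. The 11 that were called in none were SMG1, SMG5, SMG6, CNOT2, CNOT10, CNOT11, PARN, DCP1B, EDC3, XRN2 and EXOSC6.

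After Dox, 5 members rose and 7 fell in sgAAVS1 cells, where 7.25% of all genes tested rose and 8.68% fell. In sgIGF2BP2 cells 1 rose and 7 fell, against 10.0% and 10.4% of all genes, and in sgIGF2BP3 cells 0 rose and 3 fell, against 1.64% and 1.01%. The members' median log2 fold change was -0.03, -0.05 and -0.04 in the 3 lines, and that of all genes was 0.00, 0.01 and 0.00. These counts leaned on single libraries: they were 6 without sgAAVS1 DMSO replicate 3 and 7 without sgAAVS1 Dox replicate 4, and 3 without sgIGF2BP2 DMSO replicate 3. In sgIGF2BP3 cells 0 were called without Dox replicate 4 and 1 without Dox replicate 2 or any 1 of the 4 DMSO libraries.

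After siIGF2BP2, 8 members rose and 5 fell, and 18.4% of all genes tested rose and 18.4% fell, so that the share of members that rose was close to that of all genes and the share that fell was below it. After siIGF2BP3, 0 rose and 2 fell, against 0.936% and 1.4% of all genes, and 1 was called without any 1 of siControl replicates 1, 2 and 3 or siIGF2BP3 replicates 1, 3 and 4. The siControl groups also differed from the DMSO groups of the same line. With siControl, 6 members were higher and 3 lower than with DMSO in sgIGF2BP2 cells (10.2% and 8.16% of all genes), and 3 were higher and 10 lower in sgIGF2BP3 cells (10.9% and 8.54%). In sgIGF2BP2 cells the count of 9 became 5 without DMSO replicate 3 or siControl replicate 1.

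**Figure D2:**
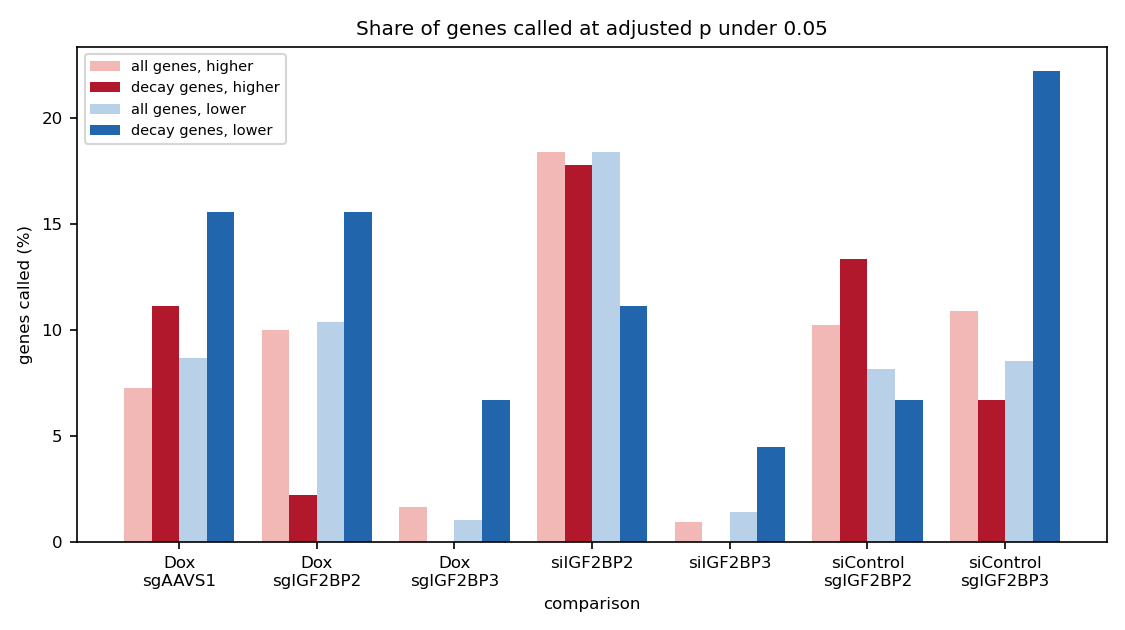
Percent of genes called higher (red) and lower (blue) in each of 7 comparisons, pale for all 11428 genes and dark for the 45 decay genes. The dark blue bars exceed the pale blue ones in all comparisons but siIGF2BP2 and siControl in sgIGF2BP2 cells, and 22.2% of decay genes were lower with siControl in sgIGF2BP3 cells.

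**Figure D3:**
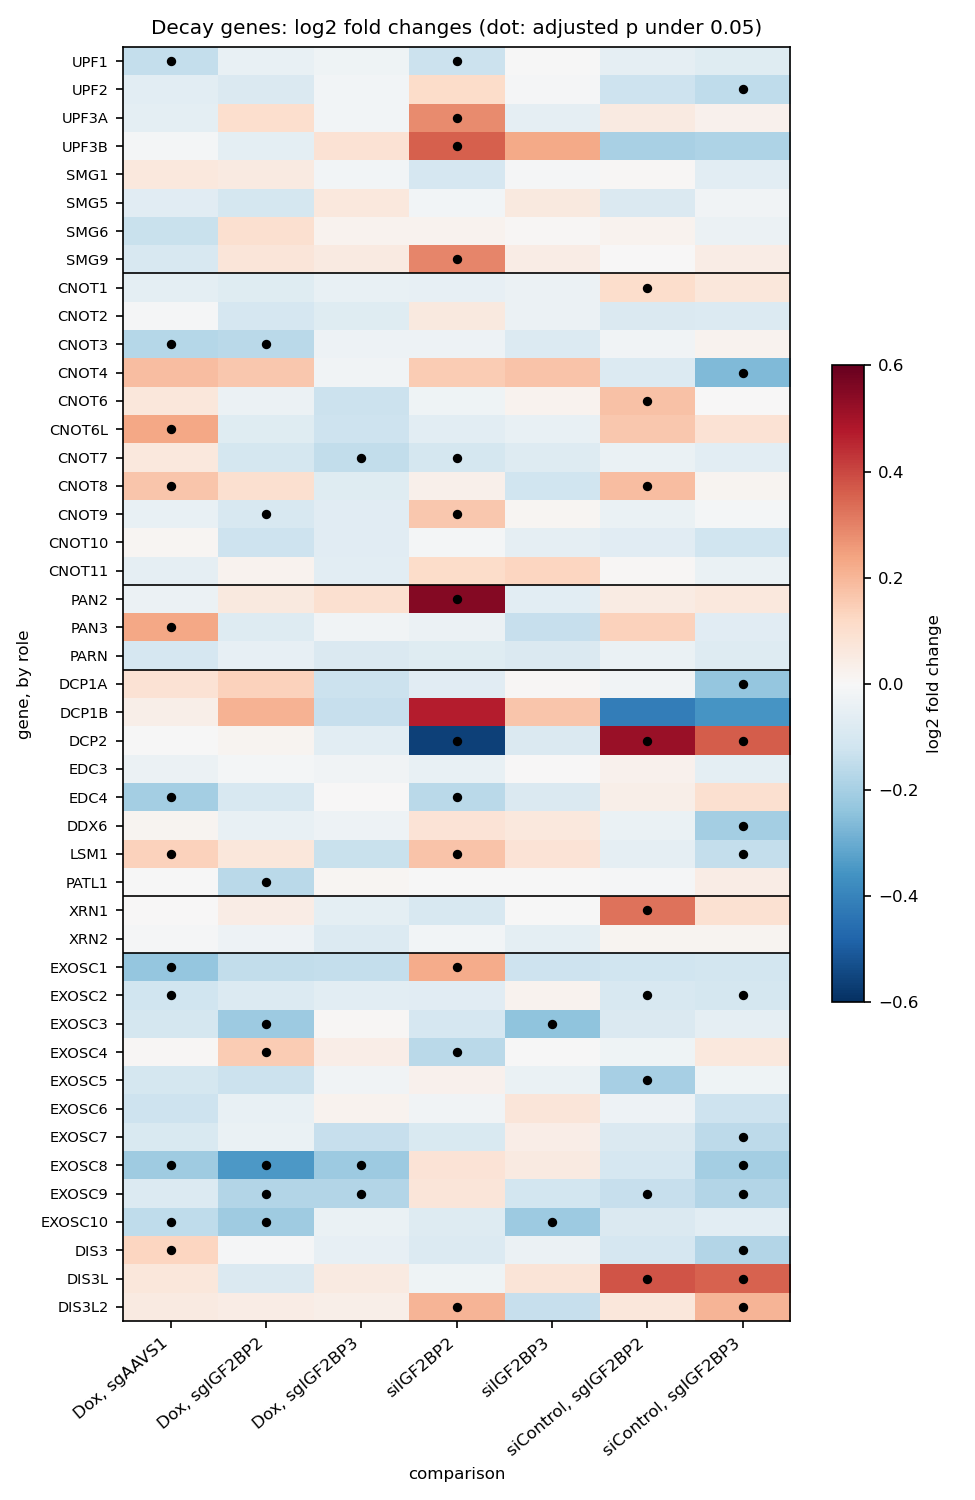
Log2 fold changes (colour) of the 45 decay genes (rows, by role) in 7 comparisons (columns), with a black dot where the adjusted p was under 0.05. The darkest called cells are DCP2 and PAN2 after siIGF2BP2 and DCP2 with siControl in sgIGF2BP2 cells, and EXOSC8 is blue with a dot in all 3 Dox columns.

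Among NMD factors, 3 of 8 rose and 1 fell after siIGF2BP2, where 18.4% of all genes tested rose and 18.4% fell, and the list had a median log2 fold change of 0.07. UPF3B, which links UPF2 to the exon junction complex, stood at 16.6, 17.3, 19.3 and 19.1 CPM in the 4 siControl libraries of sgIGF2BP2 cells and at 22.8, 20.9, 26.3 and 22.4 with siIGF2BP2. The groups did not overlap. Its log2 fold change was 0.36 (SE 0.077 by edgeR, adjusted p = 0.000132). Its paralog UPF3A was at 39.4, 39.9, 42.3 and 42.8 CPM with siControl and at 48.4, 48.2, 55.0 and 48.1 with siIGF2BP2, again without overlap, a log2 fold change of 0.28 (SE 0.056 by edgeR, adjusted p = 4.04e-05). SMG9, a subunit of the SMG1 kinase complex, was at 80.8, 84.3, 75.2 and 81.4 CPM with siControl and at 103, 95.9, 102 and 94.1 with siIGF2BP2, a rise of 0.29 on the log2 scale (SE 0.046 by edgeR, adjusted p = 3.15e-07). All 3 genes kept their calls under each alternative and without each library. The highest library of UPF3A and UPF3B was siIGF2BP2 replicate 3, and without it their log2 fold changes were 0.23 and 0.29. UPF1 fell by 0.13 on the log2 scale after siIGF2BP2, from 240 ± 7.10 to 219 ± 10.5 CPM (SD, n = 4). Its lowest library was siIGF2BP2 replicate 3 (208.5 CPM), which stood apart. This call was not among those followed without each library.

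In the other comparisons of 2 groups, fewer NMD factors were called. After Dox in sgAAVS1 cells the list's median log2 fold change was -0.07, with 1 of 8 positive (51.3% of all genes tested). For the Dox effect in sgIGF2BP3 minus sgAAVS1 cells the list median was 0.11. There 7 of 8 were positive (49.7% of all genes) and 0 were called. UPF1 fell by 0.14 on the log2 scale after Dox in sgAAVS1 cells, from 261 ± 5.89 to 236 ± 5.50 CPM (SD, n = 4; SE 0.032, edgeR adjusted p = 0.000872), and no NMD factor was called after Dox in the other 2 lines. UPF2, the bridge between UPF1 and UPF3B, was lower with siControl than with DMSO in sgIGF2BP3 cells, a log2 difference of -0.15 (edgeR adjusted p = 0.0194). That call was lost without DMSO replicate 4 (adjusted p = 0.0987), siControl replicate 2 (0.0705) or siControl replicate 3 (0.142). UPF3B had a log2 difference of 0.23 after siIGF2BP3 that did not pass (SE 0.082 by edgeR, adjusted p = 0.143), and of -0.19 between siControl and DMSO in sgIGF2BP2 cells that did not pass either (adjusted p = 0.0726).

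In CCR4-NOT, the called changes were under 0.3 on the log2 scale in every comparison of 2 groups. The scaffold CNOT1 was higher with siControl than with DMSO in sgIGF2BP2 cells (0.11), as were the catalytic subunits CNOT6 (0.18) and CNOT8 (0.19). Each of these calls was lost without at least 1 library: CNOT1 without DMSO replicate 3 (edgeR adjusted p = 0.0786) or siControl replicate 2 (0.105), CNOT6 without siControl replicate 1 (0.0548), and CNOT8 without DMSO replicate 3 (0.0516) or siControl replicates 1 (0.101) or 2 (0.0561). CNOT3, which with CNOT2 forms the NOT module, fell after Dox by 0.17 in sgAAVS1 and by 0.16 in sgIGF2BP2 cells on the log2 scale. The first call was lost without sgAAVS1 Dox replicate 2 (adjusted p = 0.0635) and the second in 4 of 8 fits without 1 library (adjusted p up to 0.0985).

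The catalytic paralogs of CCR4-NOT were described in pairs. CNOT6L rose by 0.23 on the log2 scale after Dox in sgAAVS1 cells, from 27.6, 26.8, 21.5 and 28.5 CPM to 30.4, 31.4, 29.4 and 31.7, with no overlap between the groups. Its call was lost without DMSO replicate 3 (log2 fold change 0.15, edgeR adjusted p = 0.190), Dox replicate 2 (0.0534) or Dox replicate 4 (0.0695). CNOT8 rose by 0.17 in the same comparison, a call lost in 7 of 8 fits without 1 library (adjusted p up to 0.137). CNOT7 fell after Dox in sgIGF2BP3 cells, from 101, 102, 98.9 and 96.8 CPM to 94.6, 90.7, 91.6 and 83.6, a log2 fold change of -0.15 (SE 0.043 by edgeR, adjusted p = 0.0389) that was lost in 6 of 8 fits without 1 library (adjusted p up to 0.270). CNOT7 also fell by 0.10 after siIGF2BP2, a call lost in 6 of 8 such fits (adjusted p up to 0.135). CNOT9, a subunit that binds adaptor proteins, rose by 0.16 after siIGF2BP2, from 120 ± 3.33 to 134 ± 3.65 CPM (SD, n = 4; edgeR adjusted p = 0.000128), and this call was kept in all 8 fits without 1 library. It fell by 0.10 after Dox in sgIGF2BP2 cells, a call lost in 7 of 8 (adjusted p up to 0.140). The E3 ligase subunit CNOT4 was lower with siControl than with DMSO in sgIGF2BP3 cells by 0.27 on the log2 scale, a call lost in 4 of 8 (adjusted p up to 0.163).

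PAN2 gave the largest rise of any member after siIGF2BP2. It was at 13.0, 12.7, 11.9 and 14.2 CPM in the siControl libraries and at 17.7, 17.3, 18.9 and 21.4 with siIGF2BP2, with a log2 fold change of 0.55 (SE 0.087 by edgeR, adjusted p = 3.92e-07). In the other 9 groups no library but sgIGF2BP3 Dox replicate 4 (16.0), sgIGF2BP2 Dox replicate 1 (15.4) and sgAAVS1 DMSO replicate 2 (15.2) exceeded 15 CPM, and no library of those groups reached the lowest with siIGF2BP2. PAN2 shares exon bases on the same strand with CNPY2, which rose by 0.27 (SE 0.080, adjusted p = 0.00655) in the same comparison. Whether reads were shared between the 2 genes was not tested. After Dox in sgIGF2BP2 cells, the log2 fold change of PAN2 was 0.06 (SE 0.093 by edgeR, adjusted p = 0.715), and after siIGF2BP3 it was -0.06.

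PAN3, the partner that brings PAN2 to poly(A) binding protein, rose after Dox only in the sgAAVS1 line among the 3 lines, from 28.2, 28.2, 26.0 and 29.3 CPM to 33.0, 33.9, 31.6 and 32.7. The groups did not overlap, and the log2 fold change was 0.23 (SE 0.059 by edgeR, adjusted p = 0.00350). It was -0.08 (SE 0.059) in sgIGF2BP2 and -0.02 (SE 0.058) in sgIGF2BP3 cells, and the differences from the sgAAVS1 line are given with the comparisons of effects. PARN, a further poly(A) exonuclease, was called in no comparison.

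Of the decapping factors, DCP2, the decapping enzyme, gave the largest fall of any member. In sgIGF2BP2 cells it was at 33.9, 30.7, 32.1 and 28.9 CPM with DMSO, at 46.7, 44.5, 45.5 and 43.2 with siControl, and at 32.5, 29.4, 31.1 and 29.4 with siIGF2BP2. The siControl libraries were thus above both other groups, which overlapped each other. By edgeR's test DCP2 was 0.52 higher on the log2 scale with siControl than with DMSO (SE 0.061, adjusted p = 3.58e-10) and fell by 0.56 after siIGF2BP2 against siControl (SE 0.062, adjusted p = 1.76e-11). These 2 comparisons share the siControl libraries. After Dox in the same line, DCP2 stood at 29.3, 35.9, 27.1 and 33.2 CPM, a log2 fold change of 0.01 (SE 0.065).

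In sgIGF2BP3 cells DCP2 was at 31.6, 31.0, 35.2 and 33.3 CPM with DMSO and at 38.0, 43.0, 39.3 and 47.3 with siControl, a log2 difference of 0.36 (SE 0.062 by edgeR, adjusted p = 7.06e-06) without overlap. With siIGF2BP3 it was at 40.5, 38.0, 38.7 and 41.3 CPM, a log2 fold change against siControl of -0.09 (SE 0.061, adjusted p = 0.573). DCP2 was therefore higher in siControl than in DMSO libraries of both lines, at the DMSO level with siIGF2BP2, and near the siControl level with siIGF2BP3. Its calls were kept under every alternative and without each library. The cause of the difference between siControl and DMSO was not tested.

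The other decapping factors changed less. The scaffold EDC4 fell by 0.21 on the log2 scale after Dox in sgAAVS1 cells (edgeR adjusted p = 0.000880), from 122 ± 5.16 to 106 ± 3.65 CPM (SD, n = 4), and by 0.16 after siIGF2BP2, a call lost without siIGF2BP2 replicate 3 (log2 fold change -0.10, adjusted p = 0.0722). LSM1, the subunit that defines the cytoplasmic LSM ring, rose by 0.17 after siIGF2BP2 (adjusted p = 0.00410) and by 0.14 after Dox in sgAAVS1 cells, the latter lost in 5 of 8 fits without 1 library (adjusted p up to 0.196). PATL1, which joins the LSM ring to decapping, fell by 0.16 after Dox in sgIGF2BP2 cells, from 93.9 ± 1.37 to 84.4 ± 6.16 CPM, and the call was lost without the library that stood apart, Dox replicate 2 (log2 fold change -0.11, edgeR adjusted p = 0.113). With siControl against DMSO in sgIGF2BP3 cells, the cofactor DCP1A was lower by 0.23, from 34.3 ± 1.74 to 29.3 ± 1.64 CPM, and the helicase DDX6 by 0.20, from 130 ± 3.62 to 112 ± 4.24 CPM (SD, n = 4; edgeR adjusted p = 0.00362 and 0.000180). DCP1B, at 1.54 to 4.56 CPM in all libraries, had the widest errors: its log2 fold change after siIGF2BP2 was 0.47 with an SE of 0.225 (adjusted p = 0.0926).

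**Figure D4:**
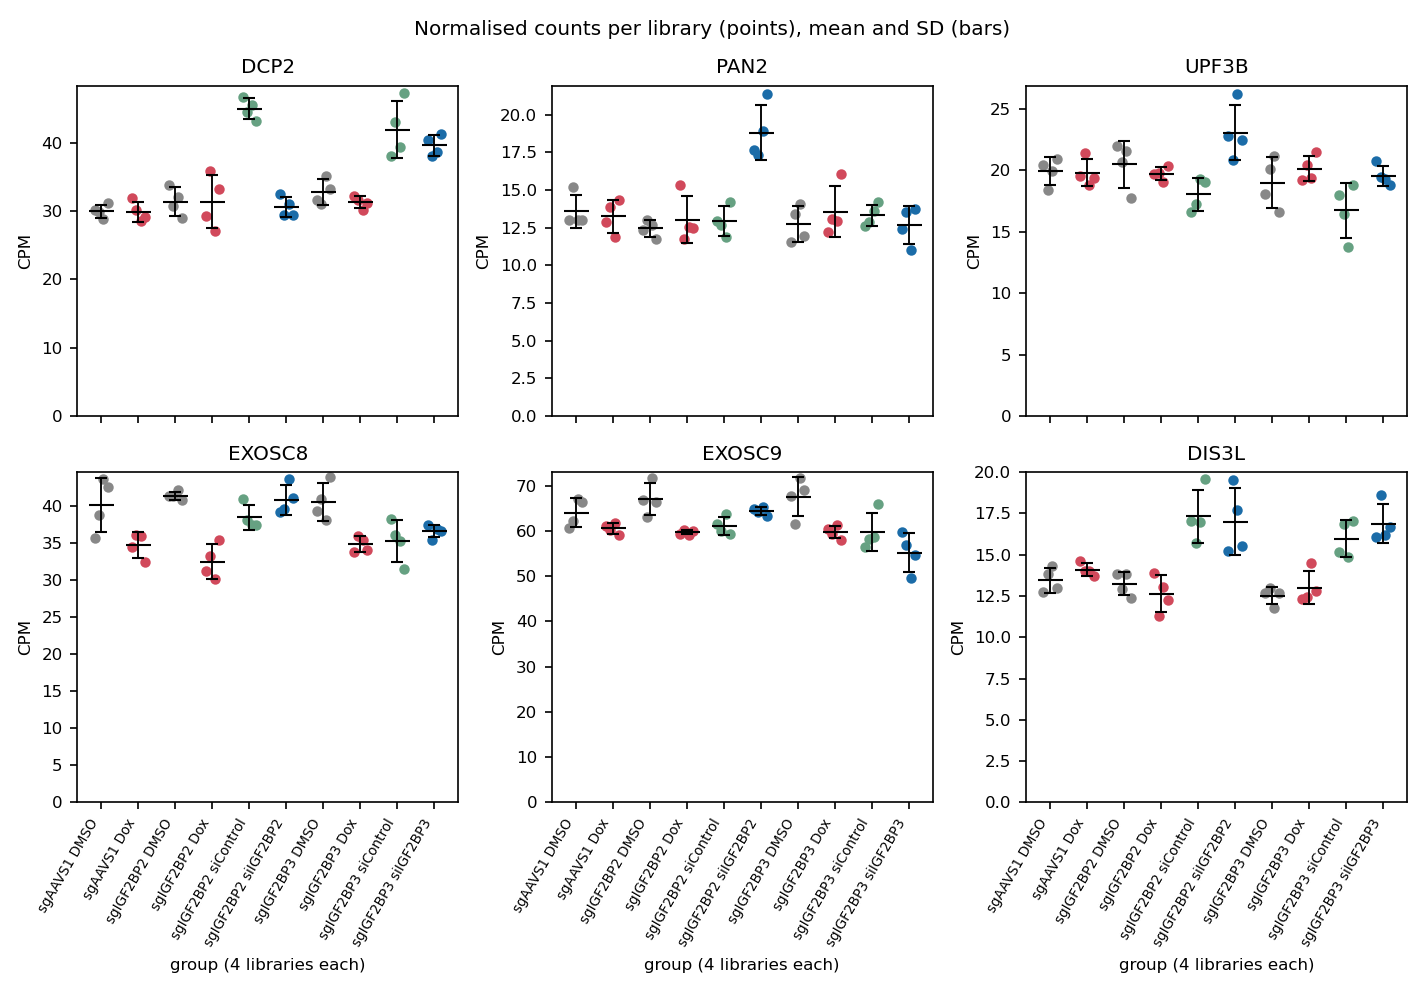
CPM per library (points) with the group mean and SD (bars) for 6 genes in the 10 groups, in grey for DMSO, red for Dox, green for siControl and blue for the targeting siRNA. DCP2 is high in both siControl groups and with siIGF2BP3, PAN2 is high with siIGF2BP2 alone among the groups plotted, and DIS3L is high in all 4 groups given an siRNA.

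Of the exonucleases, XRN1 was higher with siControl than with DMSO in sgIGF2BP2 cells. It stood at 23.3, 19.6, 21.5 and 21.1 CPM with DMSO and at 25.5, 26.4, 28.98 and 26.5 with siControl, without overlap, a log2 difference of 0.33 (SE 0.077 by edgeR, adjusted p = 0.00133). In sgIGF2BP3 cells the difference was 0.09 (SE 0.078) and did not pass. XRN2 was called in no comparison of 2 groups, and its log2 fold changes lay between -0.08 and 0.02.

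The exosome is a ring of RNase PH-like subunits (EXOSC4 to EXOSC9) with a cap (EXOSC1 to EXOSC3), and a catalytic subunit is attached to it. After Dox, 4 of the 13 genes of the exosome list, which includes DIS3L2, fell and 1 rose in sgAAVS1 cells. In sgIGF2BP2 cells 4 fell and 1 rose, and in sgIGF2BP3 cells 2 fell and 0 rose. Over all genes tested 8.68%, 10.4% and 1.01% fell and 7.25%, 10.0% and 1.64% rose in these lines. The list's median log2 fold change was -0.11, -0.09 and -0.04 in these lines, where that of all genes was between 0.00 and 0.01. The list also leaned lower with siControl, in comparisons that share each line's DMSO libraries with those of Dox. The 2 leans are therefore not independent of each other. With siControl against DMSO in sgIGF2BP2 cells, 3 were lower and 1 higher (8.16% and 10.2% of all genes), with a list median of -0.09. In sgIGF2BP3 cells 5 were lower and 2 higher with siControl (8.54% and 10.9%), with a list median of -0.11. EXOSC8, a ring subunit, was the 1 member that fell after Dox in all 3 lines, as did 16 of the 11428 genes (0.140%). In sgAAVS1 cells it went from 35.7, 38.8, 43.6 and 42.5 CPM with DMSO to 34.4, 36.1, 36.0 and 32.4 with Dox, and these groups overlapped. In sgIGF2BP2 cells it went from 41.3, 41.3, 42.1 and 40.8 CPM to 31.2, 33.3, 30.1 and 35.4, and in sgIGF2BP3 cells from 39.3, 40.9, 38.1 and 43.9 to 33.9, 36.0, 35.4 and 34.0. Neither of these pairs of groups overlapped.

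The log2 fold changes of EXOSC8 after Dox were -0.21 in sgAAVS1 (SE 0.059 by edgeR, adjusted p = 0.00737), -0.35 in sgIGF2BP2 (SE 0.059, adjusted p = 6.06e-06) and -0.22 in sgIGF2BP3 cells (SE 0.059, adjusted p = 0.0260). The sgAAVS1 line has guides to neither IGF2BP gene, and the differences of the other lines from it did not pass (-0.13 and -0.01). The sgAAVS1 call was lost without DMSO replicate 3 (adjusted p = 0.0507), and the sgIGF2BP3 call without DMSO replicates 2 (0.0554) or 4 (0.143) or Dox replicates 1 (0.0622) or 4 (0.115). EXOSC8 shares exon bases with SUPT20H on the opposite strand, and SUPT20H had log2 fold changes of 0.08, -0.09 and 0.02 in the 3 lines, none of them called.

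EXOSC9, also of the ring, fell after Dox in sgIGF2BP2 cells, from 66.9, 63.0, 71.7 and 66.5 CPM to 59.4, 60.1, 59.2 and 60.01, and in sgIGF2BP3 cells, from 67.8, 61.6, 71.7 and 69.1 to 60.4, 59.3, 61.3 and 58.1. Neither pair of groups overlapped, and the log2 fold changes were -0.17 (SE 0.049 by edgeR, adjusted p = 0.00621) and -0.18 (SE 0.049, adjusted p = 0.0335). The first was lost without DMSO replicate 3 (adjusted p = 0.0734) and the second in 5 of 8 fits without 1 library (adjusted p up to 0.148). EXOSC9 shares exon bases on the opposite strand with CCNA2, the cyclin A gene, which also fell, by 0.33 and 0.18 in the same comparisons. With siControl against DMSO the 2 genes differed in direction: EXOSC9 was lower in both lines (-0.14 and -0.17) and CCNA2 was higher (0.20 and 0.18). The EXOSC9 call in sgIGF2BP2 cells was lost in 4 of 8 fits without 1 library (adjusted p up to 0.229). Whether strand was used in counting is not given in the sources used here, and the part of shared reads was not tested.

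EXOSC10, a nuclear 3′ exonuclease, fell after Dox in sgIGF2BP2 cells by 0.21 on the log2 scale, from 106.1, 120, 116 and 116 CPM to 103, 85.9, 105.9 and 104 (SE 0.046 by edgeR, adjusted p = 0.000367). The groups met closely without overlapping, the lowest library was replicate 2, and the call was kept without it. EXOSC10 also fell after Dox in the control line sgAAVS1, from 109, 118, 119 and 116 CPM to 103, 101, 108 and 103, by 0.15 (SE 0.046, adjusted p = 0.0152) and without overlap. The difference in Dox effect between these 2 lines did not pass (-0.06, SE 0.065, adjusted p = 0.658), and in sgIGF2BP3 cells the log2 fold change was -0.04 and did not pass. After siIGF2BP3 EXOSC10 fell from 103, 104, 111 and 111 CPM to 98.7, 90.4, 90.0 and 89.5, by 0.22 (SE 0.047, adjusted p = 0.00217), a call kept in all 8 fits without 1 library. The cap subunit EXOSC3 fell by 0.22 after Dox in sgIGF2BP2 cells, a call lost without DMSO replicate 3 (adjusted p = 0.0903) or Dox replicate 1 (0.0820), and by 0.24 after siIGF2BP3, a call lost in 6 of 8 (adjusted p up to 0.122). EXOSC4, a ring subunit, rose by 0.15 after Dox in sgIGF2BP2 cells, a call lost in 4 of 8 fits without 1 library (adjusted p up to 0.227). It fell by 0.16 after siIGF2BP2, a call lost without siIGF2BP2 replicate 1 (0.106) or 2 (0.0667).

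EXOSC1, a cap subunit, fell by 0.23 after Dox in sgAAVS1 cells, from 31.8, 31.5, 31.0 and 31.6 CPM to 26.6, 25.9, 27.5 and 26.9 (SE 0.063 by edgeR, adjusted p = 0.00594), and rose by 0.22 after siIGF2BP2, from 29.1, 29.9, 28.4 and 25.3 CPM to 33.0, 31.4, 34.6 and 32.7 (SE 0.061, adjusted p = 0.00283). Neither pair of groups overlapped. EXOSC2, also of the cap, was lower by 0.12 after Dox in sgAAVS1 cells and by 0.10 and 0.11 with siControl in the 2 lines. The ring subunit EXOSC5 was lower by 0.20 with siControl in sgIGF2BP2 cells, a call lost in 4 of 8 fits without 1 library (adjusted p up to 0.141). For EXOSC2, the siControl call in sgIGF2BP2 cells was lost in 5 of 8 (adjusted p up to 0.197), and the Dox call was lost without DMSO replicate 2 (adjusted p = 0.0501), Dox replicate 1 (0.0541) or Dox replicate 4 (0.0559).

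Among the DIS3 genes, DIS3L was higher with siControl than with DMSO in both lines. This gene, the cytoplasmic exosome nuclease, stood at 13.8, 13.0, 13.9 and 12.4 CPM with DMSO and 17.0, 15.7, 17.0 and 19.6 with siControl in sgIGF2BP2 cells, and at 12.7, 13.0, 11.8 and 12.7 with DMSO and 15.1, 16.9, 14.9 and 17.0 with siControl in sgIGF2BP3 cells. The groups did not overlap in either line. The log2 differences were 0.38 (SE 0.080 by edgeR, adjusted p = 0.000300) and 0.36 (SE 0.084, adjusted p = 0.00106), kept in every fit without 1 library. With a targeting siRNA DIS3L stayed near siControl, at log2 fold changes of -0.02 (siIGF2BP2) and 0.08 (siIGF2BP3). DIS3, the mainly nuclear catalytic subunit, was lower by 0.18 with siControl in sgIGF2BP3 cells, from 94.4 ± 3.35 to 83.6 ± 2.08 CPM (SD, n = 4; adjusted p = 0.00107). DIS3L2, which degrades uridylated RNA without the exosome, was higher by 0.20 with siControl in sgIGF2BP3 cells, from 33.4 ± 1.27 to 38.3 ± 2.90 CPM (adjusted p = 0.0106), and had a difference of 0.07 in sgIGF2BP2 cells that did not pass. It rose by 0.20 after siIGF2BP2 (SE 0.058, adjusted p = 0.00418), from 36.0 ± 0.792 to 41.3 ± 2.35 CPM.

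Differences between effects were tested in the same fit. The Dox effect differed between the sgIGF2BP2 and sgAAVS1 lines for 1 member, lower in sgIGF2BP2 and none higher (2.97% of all genes tested were lower and 4.01% higher), and that gene was PAN3 (-0.31, SE 0.083, edgeR adjusted p = 0.0133). Between the sgIGF2BP3 and sgAAVS1 lines, 1 member was higher (4.53% of all genes) and 4 were lower (3.25%). These were EDC4 (0.21), CNOT6L (-0.35), CNOT7 (-0.21), PAN3 (-0.25) and LSM1 (-0.27, adjusted p = 0.00974), and of them LSM1 alone was called in all 16 fits without 1 library. The call was lost in 3 of the 16 for CNOT6L (adjusted p up to 0.112), 3 for CNOT7 (0.0957), 7 for EDC4 (0.0962) and 11 for PAN3 (0.114). The first count was 4 without sgAAVS1 DMSO replicate 4, 3 without sgIGF2BP2 DMSO replicate 2 or Dox replicate 2, and 2 without sgAAVS1 Dox replicate 3, sgIGF2BP2 DMSO replicate 4 or sgIGF2BP2 Dox replicate 4. The second was 10 without sgAAVS1 DMSO replicate 4, 3 without sgAAVS1 DMSO replicates 1 or 2, sgAAVS1 Dox replicate 1 or sgIGF2BP3 DMSO replicates 1 or 4, 2 without sgAAVS1 DMSO replicate 3, and 1 without sgIGF2BP3 Dox replicate 4. Both differences use the sgAAVS1 libraries.

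The siRNA effects differed between siIGF2BP3 and siIGF2BP2 for 8 members, 2 higher with siIGF2BP3 (9.88% of all genes tested) and 6 lower (8.82%). Each pool was used in its own line and set against the siControl of that line, so pool and line cannot be told apart. DCP2 (0.47, SE 0.087, edgeR adjusted p = 2.83e-05) and UPF1 (0.13) were the higher ones, and PAN2 (-0.62, SE 0.13, adjusted p = 0.000211), EXOSC1 (-0.35), DIS3L2 (-0.34), UPF3A (-0.34), SMG9 (-0.25) and CNOT9 (-0.15) the lower ones. The call of UPF1 was lost in 10 of 16 fits without 1 library (adjusted p up to 0.106). That of CNOT9 was lost without sgIGF2BP2 siControl replicate 3 (0.0561), sgIGF2BP3 siControl replicate 3 (0.0662) or sgIGF2BP3 siControl replicate 4 (0.0541).

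The siRNA and the knockout of the same gene were set against each other in 2 comparisons that were added after the data had been seen. The Dox effect of the sgAAVS1 line was not taken off, so the knockout side includes effects of doxycycline and Cas9. EXOSC8 (-0.21) and EXOSC1 (-0.23) also fell after Dox in sgAAVS1 cells. The treatments lasted 48 hours (siRNA) and 72 hours (Dox), and IGF2BP2 itself fell by 1.84 and 1.34 on the log2 scale. For IGF2BP2, the siRNA effect exceeded the Dox effect for 8 members (12.4% of all genes tested) and lay below it for 2 (13.7%). The higher ones were PAN2 (0.49, SE 0.13), EXOSC8 (0.43, SE 0.082), UPF3B (0.42, SE 0.11), EXOSC1 (0.37), CNOT9 (0.26), EXOSC9 (0.25), SMG9 (0.22) and UPF2 (0.20), and the lower ones DCP2 (-0.58, SE 0.090, edgeR adjusted p = 5.42e-07) and EXOSC4 (-0.31). EXOSC8 fell with Dox and had a log2 fold change of 0.08 with siIGF2BP2, while DCP2 and PAN2 moved with the siRNA and had log2 fold changes of 0.01 and 0.06 with Dox. The call of UPF2 was lost without sgIGF2BP2 siControl replicate 1 (adjusted p = 0.0549) or siIGF2BP2 replicate 2 (0.0577). For IGF2BP3, no member differed between siRNA and Dox at this threshold by edgeR or by DESeq2, against 0.473% higher and 0.884% lower of all genes tested, and 8 members had an unadjusted p under 0.05.

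**Figure D5:**
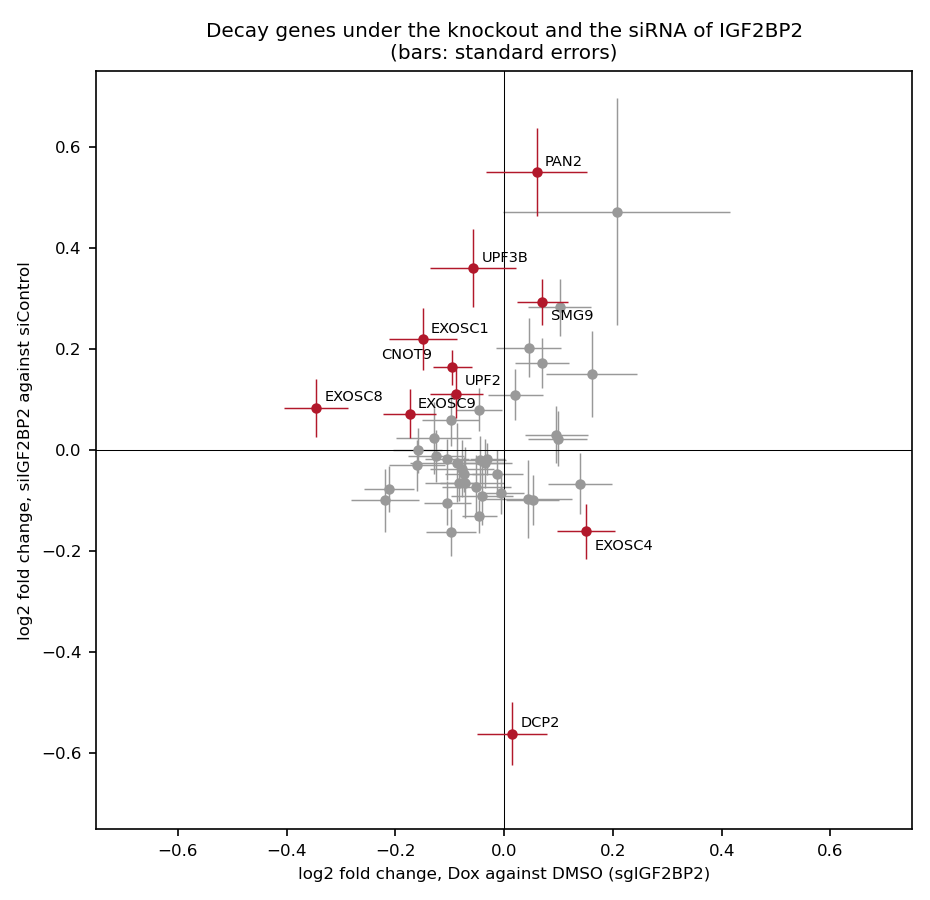
Log2 fold change of each of the 45 genes after siIGF2BP2 against siControl (vertical axis) and after Dox against DMSO in sgIGF2BP2 cells (horizontal axis), with standard errors as bars and the 10 genes whose effects differed in red. PAN2 and DCP2 lie far from zero on the vertical axis only, and EXOSC8 lies left of the others on the horizontal axis.

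Because a ratio of 2 genes within a library does not depend on how libraries are scaled, 5 pairs of paralogs were compared as log2 ratios of their counts in 5 treatment comparisons, 25 tests in all. No ratio passed after Benjamini-Hochberg adjustment (smallest adjusted p = 0.179, exact two-sided permutation test), and with 4 libraries against 4 the smallest p the test can give is 0.0286. At that smallest p, as few as 4 ratios without overlap cannot pass the adjustment over 25 tests, so no conclusion is drawn from the lack of a pass. In 4 of the 25 the groups did not overlap. The log2 ratio of UPF3A to UPF3B was 1.29 ± 0.15 with siControl and 1.00 ± 0.062 with siIGF2BP3 (SD, n = 4). The ratio of CNOT6 to CNOT6L went from 1.10 ± 0.15 with DMSO to 0.93 ± 0.038 with Dox in sgAAVS1 cells. The ratio of CNOT7 to CNOT8 went from 1.29 ± 0.083 to 1.10 ± 0.049 after Dox in sgIGF2BP2 cells and from 1.29 ± 0.019 to 1.21 ± 0.042 in sgIGF2BP3 cells. Counts of paralogs are uncertain where the authors' counting could split shared reads.

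The 50 partner genes, listed for what they do beside the members, were described by counts. After siIGF2BP2, 12 of the 50 fell and 5 rose, where 18.4% of all genes tested fell and 18.4% rose. Of the 9 NMD partners, 5 fell and 1 rose, and the list's median log2 fold change was -0.13, where that of all genes was 0.01. The translation release factors GSPT1 (-0.35, SE 0.033, edgeR adjusted p = 7.39e-14) and ETF1 (-0.24) were among those that fell. Of 16 exosome cofactors and ribosome rescue factors, 4 fell and 2 rose, near the share of all genes (18.4% each way): the rescue GTPase HBS1L fell by 0.53 (SE 0.047, adjusted p = 5.25e-15), the terminal uridylyltransferase TUT7 by 0.34, and ZCCHC8 of the nuclear exosome targeting complex rose by 0.32. Of 13 deadenylation partners, 3 fell and 1 rose, again beside 18.4% of all genes each way, the mitochondrial deadenylase PDE12 by the most (-0.38). By the direct test of the difference between siRNA effects, those on GSPT1 (0.28), HBS1L (0.48) and PDE12 (0.41) were higher for siIGF2BP3 than for siIGF2BP2. Each pool was used in its own line, so pool and line cannot be told apart.

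After Dox, the antiproliferative BTG2, which binds the CNOT7 and CNOT8 deadenylases, rose in all 3 lines. Its log2 fold changes were 0.44 (SE 0.082) in sgAAVS1, 1.37 (SE 0.076) in sgIGF2BP2 and 0.77 (SE 0.080) in sgIGF2BP3 cells, with means rising from 13.7 to 18.6, 12.1 to 31.0 and 12.9 to 22.0 CPM. The rise in sgIGF2BP2 exceeded that in sgAAVS1 cells by 0.92 (SE 0.11 by edgeR, adjusted p = 9.63e-09). The difference between the sgIGF2BP3 and sgAAVS1 lines did not pass. BTG2 was also higher with siControl than with DMSO, by 0.32 in sgIGF2BP2 and 0.32 in sgIGF2BP3 cells (edgeR adjusted p = 0.00371 and 0.00287). These comparisons share the DMSO libraries with those of Dox. Of the 12 LSM ring and decapping partners, 4 fell and 1 rose after Dox in sgIGF2BP2 cells, beside 10.4% and 10.0% of all genes. In the control line sgAAVS1, 3 fell and 1 rose, beside 8.68% and 7.25%. In sgIGF2BP2 cells LSM3 (-0.23), LSM4 (-0.13), LSM5 (-0.18) and LSM6 (-0.27) fell and PNRC1 (0.68) rose. The call of LSM4 was lost in 1 of 13 alternatives (adjusted p up to 0.0717). In sgAAVS1 cells PNRC1 was also the gene that rose (0.45, edgeR adjusted p = 0.00284). LSM14B (-0.14) and LSM7 (-0.17) were among those that fell there. No gene of this list differed in Dox effect between the sgIGF2BP2 and sgAAVS1 lines at this threshold. Of the 9 tested transcripts reported as NMD targets, 2 rose and 0 fell after Dox in sgIGF2BP2 cells, beside 10.0% and 10.4% of all genes. They were GADD45A, by 0.54 (SE 0.054, edgeR adjusted p = 2.21e-12), and GADD45B, by 0.45, genes that are also known to respond to stress by other routes. GADD45B also rose by 0.37 after Dox in sgAAVS1 cells (edgeR adjusted p = 0.0193). The difference in Dox effect between these lines passed for GADD45A (0.56, edgeR adjusted p = 3.22e-07) and NAT9 (0.26), and not for GADD45B. Of the same 9, 1 rose and 3 fell after Dox in sgAAVS1 cells (7.25% and 8.68% of all genes). After Dox in sgIGF2BP3 cells 0 rose and 1 fell (1.64% and 1.01%). With siControl against DMSO, 0 were higher and 3 lower in each line. The shares of all genes there were 10.2% and 8.16% in sgIGF2BP2 cells and 10.9% and 8.54% in sgIGF2BP3 cells. After siIGF2BP2, 1 rose (ATF4, 0.11) and 0 fell by edgeR, with 2 at an unadjusted p under 0.05. All 9 had positive log2 fold changes there (52.1% of all genes), with a list median of 0.11, beside 0.01 over all genes. After siIGF2BP3, 0 rose and 0 fell by edgeR. There 8 of the 9 were positive (50.7% of all genes), with a list median of 0.08, beside 0.00 over all genes. With siControl against DMSO the list medians were -0.18 in sgIGF2BP2 and -0.11 in sgIGF2BP3 cells. These comparisons share the siControl libraries with those of the targeting siRNAs. After Dox, 7 of the 9 were positive in sgIGF2BP2 (list median 0.11), 7 in sgIGF2BP3 (0.03) and 3 in sgAAVS1 cells (-0.02). Whether the list as a set shifted was not tested.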

How the data were processed

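The files held 1 table of raw read counts per gene for 40 libraries, which the authors deposited. Base calls were converted with bcl2fastq 2.20.0.422 and reads aligned with STAR 2.7.5c to hg38, per the submitters' processing notes. The counting tool, annotation and use of strand are not given in the sources used here, and reads shared by paralogs or overlapping genes may be split or lost. All 40 libraries were fitted together with edgeR 4.0.16 (R 4.3.3): TMM scaling, filterByExpr by group, 1 coefficient per group, quasi-likelihood tests, and Benjamini-Hochberg adjustment over all genes tested. The standard error is the absolute log2 fold change divided by the square root of F. The fit was tested on simulated data. Paralog ratios used a pseudocount of 0.5.

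The members and the partner, target and marker lists were chosen with earlier results of these data known. Named genes were the called members (all of 10 or fewer, otherwise up to 3 per role group by p-value), up to 3 called genes per partner list, and the highest and lowest member per role. Other members appear in sentences on their role group, and SUPT20H, CNPY2, CCNA2, LSM5 and LSM6 were named after their values were seen. The deviations of same-numbered replicates correlated at r from -0.0896 to 0.0924 over 28 pairs, none over 0.1, and the labels do not say what a number shares. Alternatives were DESeq2 1.42.0, its size factors, no count filter, fits on the groups compared alone, a replicate block, and leaving out each library. The values of 1 partner gene are not reported here.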

Additional observations from a re-analysis of the deposited data

Results flagged for a closer look

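Single libraries far from the other 3 of their group were found in 6 of the 101 groups of 4 tested for the named genes, and chance flags about 1 in 20. EXOSC10 was at 85.9 CPM in sgIGF2BP2 Dox replicate 2 (median of the others 104) and at 98.7 in siIGF2BP3 replicate 1 (90.0). UPF3A was at 55.0 CPM in siIGF2BP2 replicate 3 (48.2), and EXOSC4 at 89.7 in sgIGF2BP2 siControl replicate 3 (96.5). UPF2 was at 79.8 CPM in sgIGF2BP3 DMSO replicate 4 (74.0), and DDX6 at 119 in sgIGF2BP3 siControl replicate 4 (111). The first of these libraries is the one that stood apart from its group over all genes.

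Effects that differed between 2 settings by edgeR's test of the difference are given on the log2 scale. The Dox effect on PAN3 was lower in sgIGF2BP2 than in sgAAVS1 cells (-0.31). Against sgAAVS1, the Dox effect in sgIGF2BP3 cells was lower for CNOT6L (-0.35), LSM1 (-0.27), PAN3 (-0.25) and CNOT7 (-0.21) and higher for EDC4 (0.21). The IGF2BP2 siRNA effect was above the Dox effect for PAN2 (0.49), EXOSC8 (0.43), UPF3B (0.42), EXOSC1 (0.37), CNOT9 (0.26), EXOSC9 (0.25), SMG9 (0.22) and UPF2 (0.20). It was below the Dox effect for DCP2 (-0.58) and EXOSC4 (-0.31). The siIGF2BP3 effect was above that of siIGF2BP2 for DCP2 (0.47) and UPF1 (0.13), and below it for PAN2 (-0.62), EXOSC1 (-0.35), DIS3L2 (-0.34), UPF3A (-0.34), SMG9 (-0.25) and CNOT9 (-0.15).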

How the results depend on the processing

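No result reversed under any alternative run. Of 172 results for named genes, 105 kept their call under every alternative and 67 lost it under at least 1. The count of members called after Dox in sgIGF2BP2 cells was 8, and 5 when only the groups compared were fitted. For the Dox effect of sgIGF2BP2 minus sgAAVS1 it was 1, and 3 by DESeq2's Wald test, with no count filter, or with a replicate block. For that of sgIGF2BP3 minus sgAAVS1 it was 5, and 8 with only the groups compared. For the IGF2BP3 siRNA effect minus its Dox effect it was 0, and 1 with only the groups compared. The cause of these shifts was not tested. The block moved no other count of members by over 1.5 times; it gave 11 in place of 10 for the IGF2BP2 siRNA effect minus its Dox effect. Same-numbered samples correlated best with their own number in 8 of 28 cases, 6 of them between siControl and DMSO and all 4 of sgIGF2BP2 there. No correlation passed 0.1, so the block was not taken as a pairing.

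Without 1 library at a time, the count after Dox ran from 6 to 11 in sgAAVS1, 3 to 9 in sgIGF2BP2 and 0 to 2 in sgIGF2BP3 cells. It ran from 12 to 14 after siIGF2BP2 and 1 to 2 after siIGF2BP3, and for siControl against DMSO from 5 to 10 in sgIGF2BP2 and 9 to 12 in sgIGF2BP3 cells. For differences of effects it ran from 1 to 4 (Dox, sgIGF2BP2 minus sgAAVS1), 1 to 10 (Dox, sgIGF2BP3 minus sgAAVS1), 9 to 12 (IGF2BP2, siRNA minus Dox), 0 to 0 (IGF2BP3, siRNA minus Dox) and 6 to 9 (siIGF2BP3 minus siIGF2BP2). The members' median log2 fold change moved by more than the spread between replicates in 31 of 196 alternatives. Depth limits DCP1B most, at a mean of 2.54 CPM.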
